A study of Homo sapiens with 12 samples.

Results

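The 10 genes described here encode amino acid transporters of the plasma membrane, or in the case of SLC3A2 a subunit of them. They were chosen by symbol, with earlier results of these data known. All 10 were among the 36601 genes of the deposited table, and all 10 passed the filter for testing, 10 normalized counts or more on average, as did 15376 genes in all. They were SLC7A11, SLC7A5, SLC3A2, SLC7A1, SLC1A4, SLC1A5, SLC38A1, SLC38A2, SLC6A9 and SLC43A1. KP4 is a human pancreatic ductal carcinoma line, and the labels give all its libraries the genotype WT. The cells were kept for 24 h with DMSO (vehicle), with 10 mM metformin (Met), a biguanide that blocks respiratory complex I, with 5 nM FK866 (FK), an inhibitor of the NAD salvage enzyme NAMPT, or with both drugs (Met+FK). Total RNA depleted of ribosomal RNA was sequenced in 3 libraries per treatment, 12 in all. The comparisons ask what each drug did to the RNA of these transporters, and whether FK866 acted on it in the same way with and without metformin.

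Amino acid transporters are solute carriers that set which amino acids a cell can import, and many work as exchangers that let one amino acid out for another coming in. Cystine and large neutral amino acids enter through pairs of proteins, a light chain that carries the substrate and the heavy chain encoded by SLC3A2 that brings it to the cell surface. Many of these genes are known targets of ATF4, the transcription factor of the integrated stress response, and tumour cells are known for high levels of several of them.

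Between 30667735 and 41052203 read pairs were counted per library, and values are normalized counts, read pairs per gene divided by a size factor for the library. GC content went with the values to a different degree in each library. Per 10 percentage points of GC, the slope of the log2 value lay from 0.043 to 0.20 in DMSO, from −0.25 to 0.0027 in FK, from −0.14 to 0.080 in Met and from −0.048 to 0.063 in Met+FK, and FK replicate 2 had the lowest slope of all. Of the 8 markers of ductal epithelium examined, KRT8, KRT18 and SOX9 had at least 2220 normalized counts in every library, while KRT19, CDH1 and EPCAM did not exceed 86.5. Of the 7 markers of acinar, islet, blood and endothelial cells, CPA1 and INS were at 0 in all libraries and PRSS1, CELA3A and GCG did not exceed 1.65. The leukocyte gene PTPRC had up to 304 normalized counts and made up nearly all of their sum, which was 205 to 306 in DMSO, 145 to 189 in Met, 212 to 310 in FK and 105 to 168 in Met+FK. The summed normalized counts of the 8 ductal markers were 25300 to 26300 in DMSO and lower in every library with a drug, at 16500 to 19700 in Met, 19400 to 22900 in FK and 16200 to 19700 in Met+FK. KRT18 was the largest part of this sum, with 9400 to 18700 over the 12 libraries. KRT8 had 2220 to 3220 and SOX9 3410 to 5140, so the sum does not show that the markers fell together. The part of these markers in the results was not tested. The labels do not say whether replicates came from separate cultures, so p-values measure only the spread between these libraries. In RNA from whole cultures, fewer cells with a transcript and less transcript per cell cannot be told apart.

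Metformin raised 9 of the 10 transporter genes and lowered 0, where a gene was called if its fold change exceeded 1.5 and its adjusted p-value was under 0.05. Of all genes tested, 12.8% were called higher and 10.2% lower in Met than in DMSO. The median log2 fold change was 0.81 over the 10 genes and 0.012 over all genes tested. SLC1A5 rose too, but by less than 1.5-fold. For none of the 10 genes did the 3 Met libraries overlap the 3 DMSO libraries. How many of all genes tested were without overlap was not counted, here or for FK866 below. An unadjusted p-value under 0.05 in limma-trend was common, in 8799 of the 15376 genes.

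**Figure D1:**
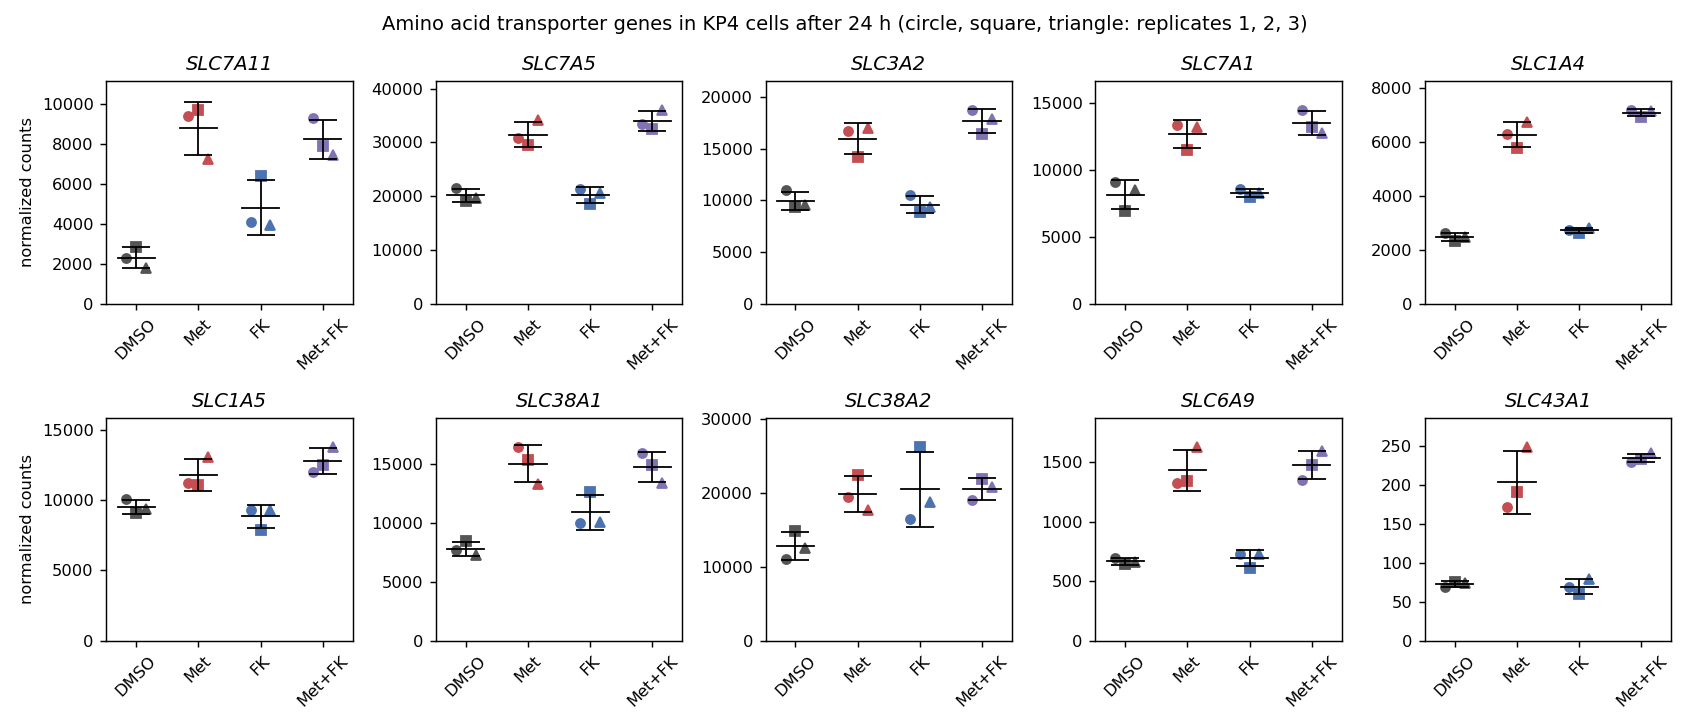
Normalized counts of the 10 amino acid transporter genes (vertical axes, each starting at 0) in DMSO, Met, FK and Met+FK. Circles, squares and triangles are replicates 1, 2 and 3, horizontal lines are means and bars are SD (n = 3). All 6 libraries with metformin lie above the DMSO libraries for each gene, and FK replicate 2 is the highest FK library for SLC7A11 (6397), SLC38A1 (12614) and SLC38A2 (26252).

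SLC7A11 (ENSG00000151012, on the minus strand of chromosome 4 from 138164097 to 138242349, hg38) encodes xCT, the light chain that exchanges glutamate for cystine and so feeds glutathione synthesis. Its normalized counts were 2287, 2855 and 1820 in DMSO replicates 1 to 3, and 9412, 9714 and 7252 in Met. Every Met library exceeded every DMSO library by more than 2-fold, and the log2 fold change of 1.93 (SE of 0.18, limma-trend adjusted p = 1.04e-06) was the largest of the 10 genes in the values as deposited. SLC7A5 (ENSG00000103257, chromosome 16, minus strand, 87830023 to 87869507) encodes LAT1, the light chain that takes up leucine and other large neutral amino acids. It had 19163 to 21593 normalized counts in DMSO and 29491 to 34104 in Met, a log2 fold change of 0.64 (SE 0.077, adjusted p = 1.06e-05). SLC3A2 (ENSG00000168003, chromosome 11, plus strand, 62856102 to 62888875), the heavy chain of both, rose by almost the same factor as SLC7A5, from 9974 ± 875 to 15961 ± 1531 normalized counts (SD, n = 3). Its log2 fold change was 0.68 (SE 0.091, adjusted p = 2.76e-05).

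SLC43A1 (ENSG00000149150, chromosome 11, minus strand, 57484534 to 57515780) encodes LAT3, a uniporter for leucine and other branched-chain amino acids that needs no heavy chain. It was the least abundant of the 10 genes, with 69.2, 75.9 and 73.7 normalized counts in the DMSO libraries and 171, 191 and 250 in the Met libraries. The 3 Met values were spread more widely than the DMSO values, yet the lowest of them was over 2-fold above the highest DMSO value, and the log2 fold change was 1.45 (SE 0.15, adjusted p = 2.32e-06). SLC7A1 (ENSG00000139514, chromosome 13, minus strand, 29509414 to 29595688), whose product CAT1 imports arginine and lysine, had 6917 to 9065 normalized counts in DMSO and 11473 to 13342 in Met. Its log2 fold change was 0.64 (SE 0.095, adjusted p = 6.54e-05).

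SLC1A4 and SLC1A5 encode the sodium-dependent exchangers ASCT1 and ASCT2, which carry alanine, serine and cysteine and, in ASCT2, also glutamine. SLC1A4 (ENSG00000115902, chromosome 2, plus strand, 64988477 to 65023865) had 2627, 2315 and 2461 normalized counts in DMSO and 6295, 5783 and 6722 in Met. These libraries were closely grouped within each treatment, and SLC1A4 had the smallest adjusted p-value of the 10 genes (log2 fold change 1.34, SE 0.074, adjusted p = 7.78e-09). SLC1A5 (ENSG00000105281, chromosome 19, minus strand, 46774883 to 46788594) had 10051, 9060 and 9354 normalized counts in DMSO and 11222, 11045 and 13084 in Met. Its groups did not overlap either, but the increase was 1.24-fold (log2 fold change 0.31, SE 0.088, adjusted p = 0.00878), the smallest of the 10 as deposited. The 95% interval of the log2 fold change of SLC1A4 began at 1.19 and that of SLC1A5 ended at 0.50.

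SLC38A1 and SLC38A2 are neighbours on the minus strand of chromosome 12 and encode SNAT1 and SNAT2, which import glutamine, alanine and other small neutral amino acids together with sodium. SLC38A1 (ENSG00000111371, 46183063 to 46270017) had 7729, 8439 and 7265 normalized counts in DMSO and 16464, 15304 and 13324 in Met, a log2 fold change of 0.94 (SE 0.10, adjusted p = 4.95e-06). SLC38A2 (ENSG00000134294, 46358188 to 46372773) had 11051, 14899 and 12478 in DMSO and 19480, 22475 and 17710 in Met. Its libraries varied more, and the log2 fold change of 0.64 (SE 0.15, adjusted p = 0.00212) had the largest adjusted p-value of the 9 genes called. SLC6A9 (ENSG00000196517, chromosome 1, minus strand, 43991500 to 44031467), which encodes the glycine transporter GLYT1, rose from 667 ± 27.4 to 1432 ± 171 normalized counts (SD, n = 3), a log2 fold change of 1.10 (SE 0.10, adjusted p = 1.01e-06).

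With libraries scaled to the same total, which moved the median of all genes from 0.012 to 0.13 on the log2 scale and the share of higher among called genes from 55.6% to 73.4%, the same number of transporter genes was called, 9 higher and 0 lower. A called transporter fell below the fold threshold, with its adjusted p-value still under 0.05, in 6 instances, namely SLC7A5 without Met replicate 3 (0.58), SLC7A1 without DMSO replicate 2 (0.53), and SLC38A2 without DMSO replicate 1 (0.54), without Met replicate 2 (0.55) and, at 0.31 in both fits on values freed of their trend on GC and transcript length. In those values the order of the genes also changed, since SLC43A1 (1.60) then exceeded SLC7A11 (1.503), and SLC38A2 was below SLC1A5 (0.46).

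**Figure D2:**
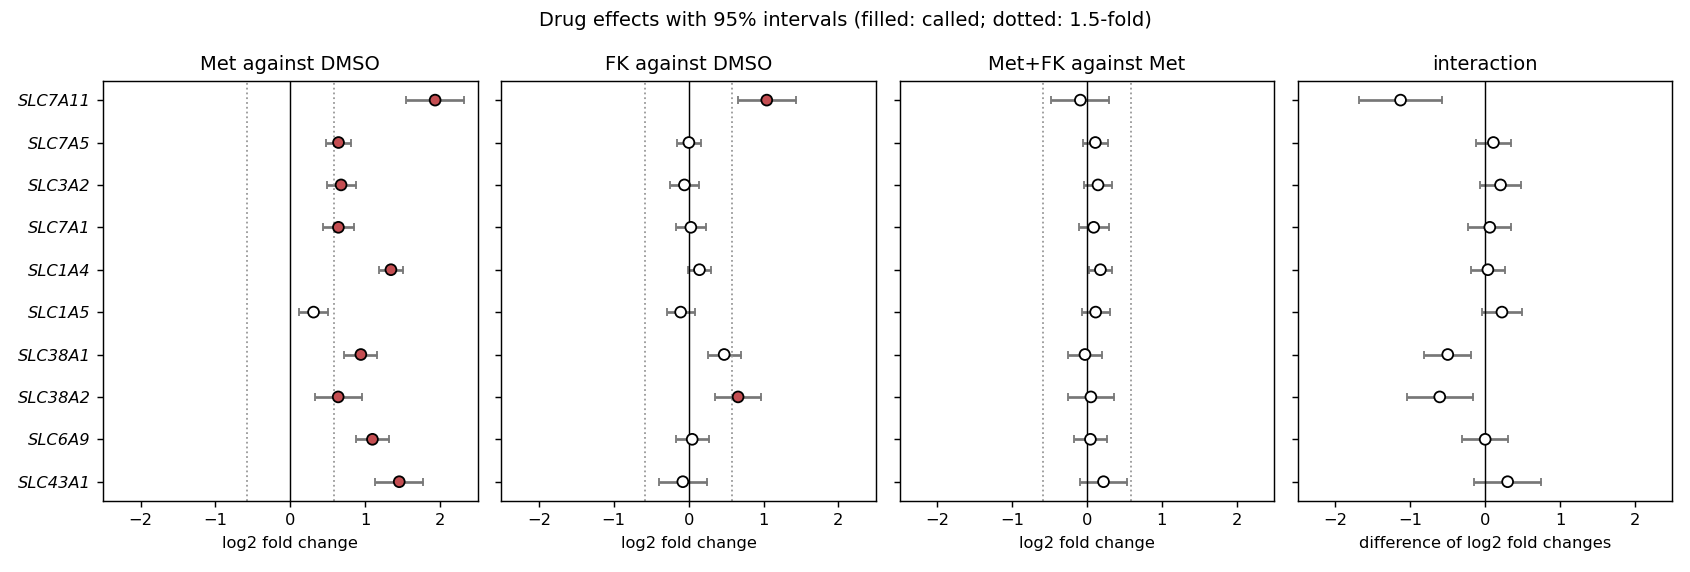
Log2 fold changes (horizontal axes) of the 10 genes in Met against DMSO, FK against DMSO and Met+FK against Met. The last panel gives the interaction, which subtracts the FK866 effect in vehicle-treated cells from that in metformin-treated cells. Bars are 95% intervals, dotted lines mark a fold change of 1.5, and filled points passed both thresholds, which 9 genes did for Met, 2 for FK and 0 for FK866 added to metformin.

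SLC7A11 and SLC7A5 share the heavy chain, so each light chain was also expressed as a ratio to SLC3A2 in the same library, in counts per kb of the canonical transcript (9.64 kb for SLC7A11, 4.56 kb for SLC7A5 and 1.89 kb for SLC3A2). The ratio of SLC7A11 to SLC3A2 was 0.0407, 0.0595 and 0.0372 in the DMSO libraries. It was 0.110, 0.134 and 0.0833 in Met, 0.0765, 0.140 and 0.0828 in FK, and 0.0976, 0.0945 and 0.0817 in Met+FK. All 9 libraries with a drug had a higher ratio than all 3 with DMSO. The mean log2 ratio was higher than in DMSO by 1.26 in Met, by 1.10 in FK and by 1.02 in Met+FK (exact permutation test, two-sided, p = 0.1 in each case, the smallest that 3 libraries against 3 allow). The ratio of SLC7A5 to SLC3A2 lay from 0.814 to 0.850 in DMSO, and the libraries of each drug group overlapped this range. Its mean log2 ratio differed from that in DMSO by −0.034 in Met, 0.060 in FK and −0.070 in Met+FK (exact permutation test, two-sided, p = 0.7, 0.3 and 0.3). SLC7A11 and SLC3A2 differ widely in GC content (35.4% and 57.8% of the canonical transcript), and the difference in their ratio was smaller once the trend on GC and transcript length was removed, an alternative chosen after the data were seen. It was then 0.66 in Met, 0.41 in FK and 0.53 in Met+FK (exact permutation test, two-sided, p = 0.1 in each case), still without overlap with DMSO. The SLC7A5 ratio differed in those values by −0.058, 0.041 and −0.105 in the same order (exact permutation test, two-sided, p = 0.4, 0.3 and 0.1), and its Met+FK libraries then lay below those of DMSO without overlap. The size of each ratio, though not its change between treatments, depends on which SLC3A2 transcript is taken, since with all annotated exons the SLC7A11 ratio in DMSO was 0.126 to 0.202.

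**Figure D3:**
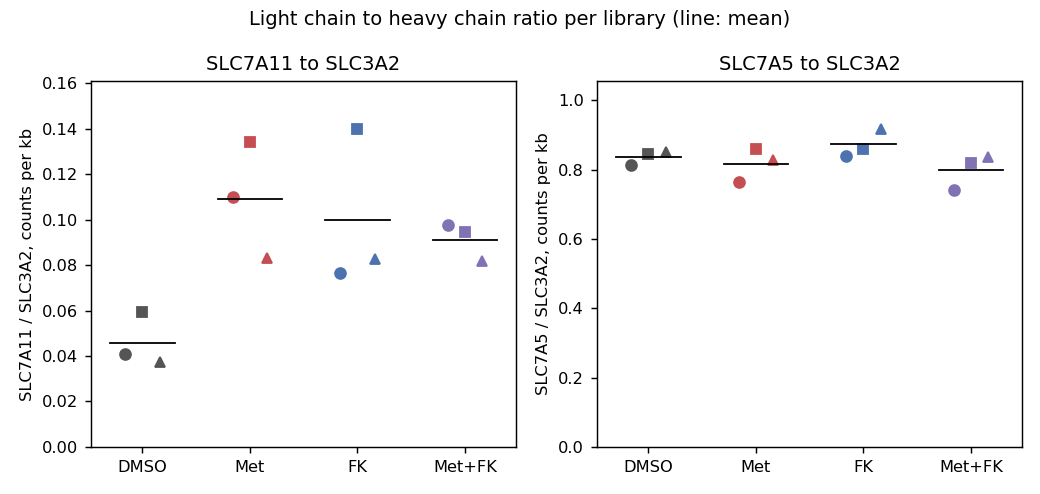
Ratio of the light chain genes SLC7A11 (left) and SLC7A5 (right) to the heavy chain gene SLC3A2, in counts per kb, per library (vertical axes from 0). Circles, squares and triangles are replicates 1, 2 and 3 and lines are means. The SLC7A11 ratio is 0.0372 to 0.0595 in DMSO and 0.0765 or higher in every library with a drug, while the SLC7A5 ratios of the 4 treatments overlap.

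FK866 alone raised 2 of the 10 transporter genes, SLC7A11 and SLC38A2, and lowered 0, against 2.73% of all genes called higher and 0.754% called lower. The median log2 fold change of the 10 genes was 0.038, against −0.016 for all genes. SLC7A11 had 4120, 6397 and 3950 normalized counts in the FK libraries, all above the 1820 to 2855 of DMSO and all below the 7252 to 9714 of Met. Its log2 fold change was 1.04 (SE of 0.18, limma-trend adjusted p = 0.00687) and was called in each of the 12 fits that left out 1 library. Leaving out a Met or Met+FK library could not move this fold change and altered only its test. SLC38A2 had 16462, 26252 and 18761 normalized counts in FK, where replicate 2 stood high (log2 fold change 0.66, SE 0.15, adjusted p = 0.0179). Its call was lost without DMSO replicate 1 (adjusted p = 0.0979), without DMSO replicate 3 (0.0557), without FK replicate 2 (0.0526) and in a fit of only the 6 libraries compared (0.0597).

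SLC38A1 had 9990, 12614 and 10083 normalized counts in FK, again without overlap with DMSO. It rose by less than 1.5-fold (log2 fold change 0.47, SE 0.10, adjusted p = 0.0174), and its adjusted p-value was 0.0846 without DMSO replicate 1, 0.0577 without DMSO replicate 3, 0.0658 without FK replicate 2 and 0.0565 in a fit of only the 6 libraries compared. SLC1A4 was the only other gene whose FK libraries did not overlap those of DMSO, with 2629 to 2808 against 2315 to 2627 normalized counts, but its log2 fold change of 0.14 did not pass the test (adjusted p = 0.148). The other 6 genes had log2 fold changes from −0.11 (SLC1A5) to 0.047 (SLC6A9), with groups that overlapped. Their 95% intervals reached at most 0.27 upward, for SLC6A9, and −0.40 downward, for SLC43A1, so changes of 1.5-fold lay outside them.

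The 3 genes that rose with FK866 were those with the lowest GC content of the 10. The canonical transcript had 35.4% GC for SLC7A11, 37.4% for SLC38A2 and 41.3% for SLC38A1, and at least 52.6% for the other 7 genes. The median GC content was 40.1% among genes called higher in FK and 48.5% among all genes tested, and every FK library had a lower GC slope than every DMSO library. After removal of each library's trend on GC and transcript length, the log2 fold changes in FK were 0.55 for SLC7A11 (limma-trend adjusted p = 0.000485), 0.26 for SLC38A2 (0.0168) and 0.15 for SLC38A1 (0.109), so 0 of the 10 genes passed the fold threshold. Of the 15376 genes tested, 165 were called higher and 36 lower in these values. In them all 10 transporter genes had a positive log2 fold change, and SLC6A9 (0.23, adjusted p = 0.0215), SLC1A4 (0.21, adjusted p = 0.0104) and SLC7A5 (0.18, adjusted p = 0.0338) had an adjusted p-value under 0.05 as well. The number of all genes that passed by the adjusted p-value alone is not given here. How far the fold changes of the 10 genes reflect the GC trend of the libraries was not tested beyond this.

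**Figure D4:**
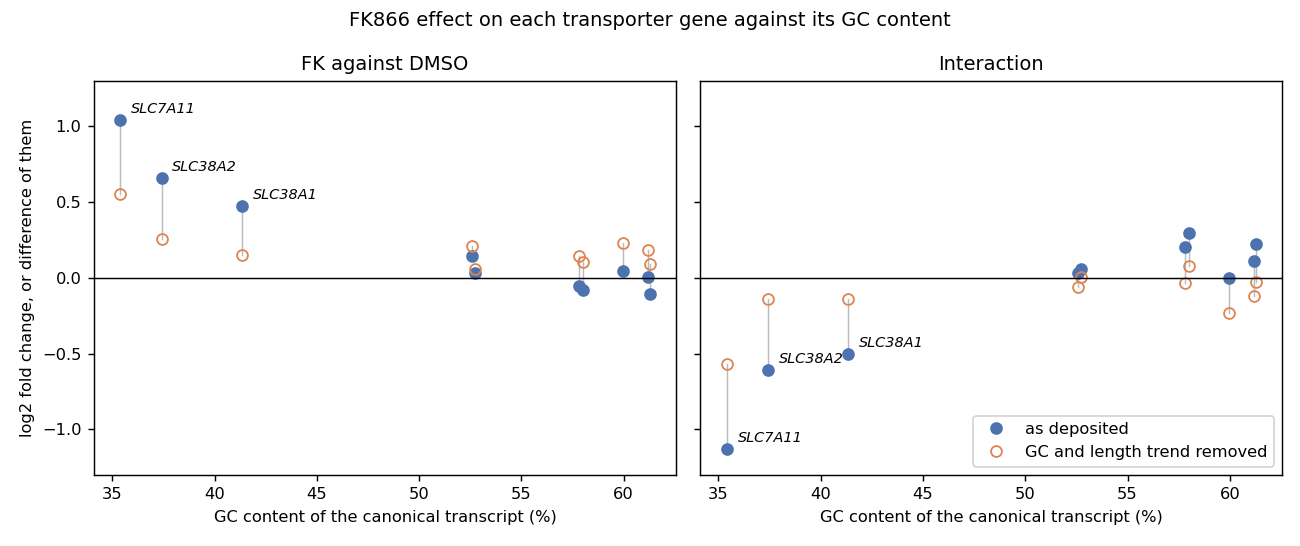
Effect of FK866 without metformin (left) and its interaction with metformin (right) on the log2 scale, for the 10 genes, against the GC content of the canonical transcript in percent. Filled circles are values as deposited, open circles those with the trend on GC content and length removed, joined by a line for each gene. The 3 named genes lie at 35.4% to 41.3% GC and move toward 0 when the trend is removed, SLC7A11 from 1.04 to 0.55 (left) and from −1.13 to −0.57 (right).

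In Met+FK, 9 of the 10 genes were called higher and 0 lower than in DMSO, against 13.7% and 11.3% of all genes, and SLC1A5 again rose by less than 1.5-fold (log2 fold change 0.43, adjusted p = 0.000952 in limma-trend). The DMSO libraries are shared with both comparisons above. SLC7A11 had 9342, 7938 and 7450 normalized counts in Met+FK (log2 fold change 1.85, adjusted p = 1.20e-06), SLC1A4 7177, 6930 and 7153 (1.52, adjusted p = 1.14e-09), and SLC43A1 230, 234 and 241 (1.68, adjusted p = 4.41e-07). The other 6 genes called had log2 fold changes from 0.69 (SLC38A2) to 1.14 (SLC6A9). With the GC and length trend removed, SLC38A2 fell below the fold threshold (0.43, limma-trend adjusted p = 1.25e-05, and 4.5e-08 with the replicate block), which left 8 genes called.

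When FK866 was added to metformin, no transporter gene passed the test. Of the 10 genes, 0 were called in either direction by limma-trend, by edgeR's quasi-likelihood test or by DESeq2. In limma-trend 0.052% of all genes were called higher and 0.0065% lower. Of all 15376 genes, edgeR called 8 higher and 1 lower, and DESeq2 15 and 4. SLC1A4 alone had an unadjusted p-value under 0.05, as did 1051 of all genes tested. Its 6930 to 7177 normalized counts in Met+FK lay above the 5783 to 6722 in Met (log2 fold change 0.18, SE 0.074, adjusted p = 0.666). SLC7A11, at 7450 to 9342 in Met+FK and 7252 to 9714 in Met, overlapped almost entirely, and the log2 fold change of −0.088 had a 95% interval from −0.48 to 0.30. Over the 10 genes the log2 fold changes lay from −0.088 to 0.22, with upper interval limits of at most 0.54 (SLC43A1).

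Metformin added to FK866 raised 7 of the 10 genes and lowered 0, where 9.27% of all genes were called higher and 9.29% lower in Met+FK than in FK. SLC43A1 (log2 fold change 1.75, limma-trend adjusted p = 4.23e-07), SLC1A4 (1.38, adjusted p = 5.50e-09) and SLC6A9 (1.10, adjusted p = 1.12e-06) had the largest increases. SLC3A2, SLC7A11, SLC7A5 and SLC7A1 followed with 0.88, 0.80, 0.75 and 0.70. SLC1A5 (0.53, adjusted p = 0.000211) and SLC38A1 (0.44, adjusted p = 0.00329) rose by less than 1.5-fold, and SLC1A5 passed that fold with libraries scaled to the same total (0.59). SLC38A2 was the 1 gene whose difference did not pass the test at any size, with 19003 to 21884 normalized counts in Met+FK and 16462 to 26252 in FK (log2 fold change 0.031, 95% interval −0.28 to 0.34). With the GC and length trend removed its log2 fold change was 0.17 (adjusted p = 0.0284 in limma-trend, and 0.00176 with the replicate block), again under 1.5-fold.

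The effect of FK866 with metformin was compared with its effect without metformin as an interaction. At an adjusted p-value under 0.05, 0 of the 10 genes and 0.0585% of all genes tested passed in limma-trend, and 0 of the 10 in edgeR. SLC7A11 (−1.13 on the log2 scale, adjusted p = 0.1044), SLC38A2 (−0.61, adjusted p = 0.1115) and SLC38A1 (−0.50, adjusted p = 0.1105) had unadjusted p-values under 0.05, as had 4695 of all genes. For these 3 genes the difference between Met+FK and Met was thus smaller than that between FK and DMSO, while the other 7 had interactions from −0.00090 to 0.30. Same-numbered libraries of DMSO and FK, and of Met and Met+FK, deviated together from their group means, and a fit with that number as a block passed all 3 genes, SLC7A11 at an adjusted p of 0.00268, SLC38A2 at 0.00531 and SLC38A1 at 0.00652. In that fit, 2380 of the 15376 genes tested had a positive and 2534 a negative interaction at an adjusted p-value under 0.05. Passing was thus common among all genes, so it does not set these 3 apart. DESeq2 on the recovered read pairs gave adjusted p-values of 0.00286, 0.0485 and 0.0400 in the same order, with 352 positive and 520 negative interactions among all genes, and limma-trend without FK replicate 1 gave 0.0391, 0.0415 and 0.0437. With the GC and length trend removed, SLC7A11 alone passed, at −0.57 (adjusted p = 0.0328, and 0.000338 with the block), while SLC38A2 and SLC38A1 were both at −0.14. Of the 15376 genes tested, 45 then had a positive and 47 a negative interaction at that threshold, and 735 and 332 with the block.

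Between genes, levels were compared per kb of the canonical transcript. In DMSO, SLC3A2 was the most abundant with 5291 ± 464 normalized counts per kb (SD, n = 3), followed by SLC7A5 with 4421 ± 282, SLC1A5 with 3292 ± 177 and SLC38A2 with 2671 ± 406. SLC7A1 (1111 ± 152) and SLC38A1 (965 ± 73.0) came next and their libraries overlapped, as did those of SLC7A11 (241 ± 53.8) and SLC6A9 (208 ± 8.56), which stood below SLC1A4 (541 ± 34.1). SLC43A1 was last with 29.0 ± 1.34. With metformin SLC7A11, at 752 to 1007 per kb, and SLC6A9, at 412 to 508, no longer overlapped, and SLC38A2 (3693 to 4687) and SLC1A5 (3832 to 4540) did. When all annotated exons of a gene were taken as its length, SLC3A2 moved to the fourth place in DMSO with 1560 per kb, behind SLC7A5, SLC1A5 and SLC38A2. On that length neither of the pairs that overlapped in DMSO did so, as SLC6A9 (122 to 133 per kb) lay below SLC7A11 (189 to 296) and SLC38A1 (725 to 843) below SLC7A1 (900 to 1179).

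Promoter sequences in RefSeq (GRCh38.p14, 250 bases before to 50 after a start site) were found for 9 of the 10 genes, at 16 start sites, and not for SLC7A11. They are shown because these genes rose together with metformin and several are known targets of stress transcription factors. The composite motif bound by ATF4 and C/EBP proteins, TGATGNAA on either strand, was present in 5 of the 16 promoters and in 3.62% of all 35116 promoters. The matches, in capitals within 28 bases of the gene's strand, were as follows.
SLC1A4, chr2:64989382-64989409, 7 bases before a start and in no annotated exon: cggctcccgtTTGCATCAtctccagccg
SLC3A2, chr11:62881721-62881748, 37 bases after a start and in coding sequence: aatgtgcaggactccTTACATCAgctcc
SLC38A1, chr12:46266503-46266530, 4 bases before a start within the gene and in no annotated exon: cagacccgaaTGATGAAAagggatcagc
SLC7A1, chr13:29595664-29595691, 7 bases after a start and in an untranslated exon: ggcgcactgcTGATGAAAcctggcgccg
SLC1A5, chr19:46784894-46784921, 97 bases before an inner start and in no annotated exon: aggaagtggcTGATGCAAgctgtccagg

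The core of the antioxidant response element, TGACNNNGC on either strand, was present in 4 of the 16 promoters and in 13.3% of all, and the E-box CACGTG, bound by MYC, MITF and TFEB proteins among others, in 3 of 16 and in 7.26% of all. The 140 bases from 150 to 11 before a start are shown for both chains of LAT1 and for SLC7A1, with matches in capitals.
SLC7A5, chr16:87869518-87869657, minus strand, E-box: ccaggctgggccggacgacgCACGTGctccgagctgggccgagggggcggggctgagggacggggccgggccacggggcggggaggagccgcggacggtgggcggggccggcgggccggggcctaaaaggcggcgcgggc
SLC3A2, chr11:62881549-62881688, plus strand, antioxidant response core: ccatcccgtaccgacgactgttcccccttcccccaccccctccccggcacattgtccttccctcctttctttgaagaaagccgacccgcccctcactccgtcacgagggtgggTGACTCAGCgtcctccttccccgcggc
SLC7A1, chr13:29595699-29595838, minus strand, antioxidant response core: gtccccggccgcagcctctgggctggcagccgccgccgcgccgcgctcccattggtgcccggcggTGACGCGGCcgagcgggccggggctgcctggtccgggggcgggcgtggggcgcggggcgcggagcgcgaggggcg
A match says only that these letters occur, and binding was not measured.

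Other carriers of amino acids were compared with the 10 genes. Of 52 further genes for such carriers at the plasma membrane, the lysosome and the mitochondria, 27 were tested. In Met against DMSO, 1 was called higher and 8 lower, where 12.8% of all genes were called higher and 10.2% lower. The median log2 fold change of the 27 was −0.12, where the 10 genes above had a median of 0.81 and all genes tested 0.012. The one called higher was SLC43A2, which encodes LAT4, a relative of LAT3 (148 ± 34.6 normalized counts in DMSO and 225 ± 11.3 in Met, SD, n = 3, log2 fold change 0.63, limma-trend adjusted p = 0.00420). The taurine transporter SLC6A6 was lower with 2203 to 2938 normalized counts in Met against 3722 to 5338 in DMSO (log2 fold change −0.87, adjusted p = 5.63e-05), as was SLC16A10, a uniporter of aromatic amino acids (−1.004, adjusted p = 0.0116), which had only 18.4 to 21.7 normalized counts in DMSO. The mean of SLC16A10 in Met was 9.78, under the filter of 10, so it was tested only because of the other treatments.

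At the mitochondria, 4 of 10 genes were called lower with metformin and 0 higher, against 10.2% and 12.8% of all genes. The glutamate carrier gene SLC25A18 had the largest decrease (−1.65, adjusted p = 0.000782), from 23.6 to 35.8 normalized counts in DMSO to 6.27 to 14.2 in Met. Its mean was 9.03 in Met and 4.47 in Met+FK, so SLC25A18 passed the filter of 10 only through DMSO (29.0) and FK (16.7). A gene under 10 in Met could enter only if it was higher elsewhere. SFXN1, which encodes a serine carrier, was lower by less but at a far higher level, 9492 ± 729 normalized counts in DMSO and 6081 ± 256 in Met (SD, n = 3, log2 fold change −0.64, adjusted p = 6.93e-06). At the lysosome, MFSD12, needed for cysteine import, was the 1 of 6 genes called lower (−0.62, adjusted p = 0.000124). The remaining genes called lower were SLC25A44 (−0.73), SLC25A22 (−0.71) and SLC7A6 (−0.67), named after their values were seen. With libraries scaled to the same total, 2 of the 27 were called higher and 5 lower. In FK against DMSO 0 of the 27 passed in limma-trend, edgeR or DESeq2, against 2.73% of all genes called higher and 0.754% lower in limma-trend. Of the 27, 10 had an unadjusted limma-trend p-value under 0.05, as had 6488 of all 15376 genes tested. In Met+FK against Met 0 of the 27 passed by any of these tests, against 0.052% of all genes called higher and 0.0065% lower in limma-trend. Of the 27, 4 had an unadjusted limma-trend p-value under 0.05, as had 1051 of all genes tested.

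**Figure D5:**
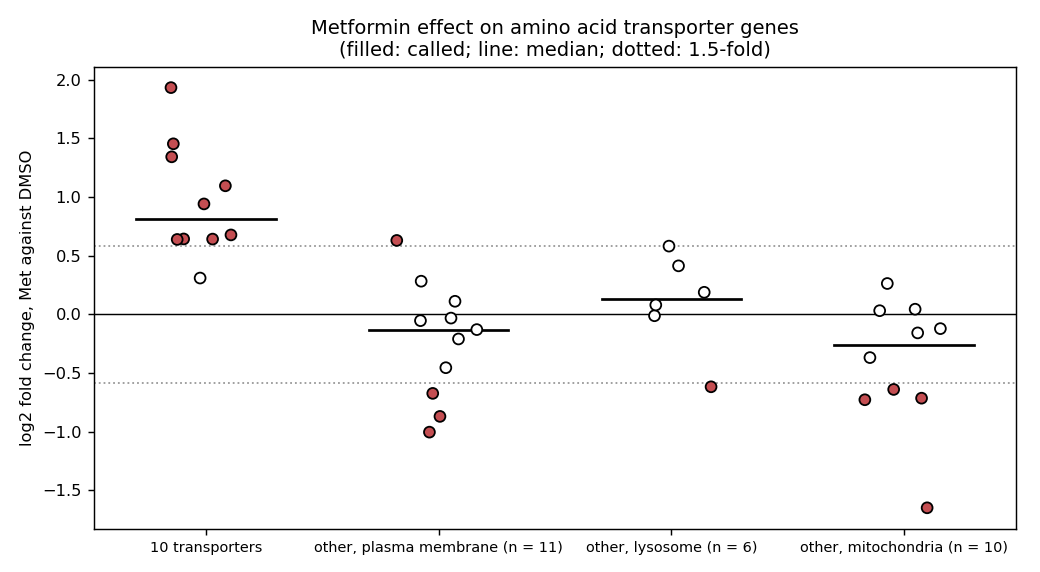
Log2 fold change of Met against DMSO (vertical axis) for the 10 transporter genes described here and for 27 other amino acid carrier genes, by membrane. Filled points were called, horizontal lines are medians and dotted lines mark 1.5-fold. Of the 10 genes 9 are called higher (median 0.81), while of the others 1 is called higher and 8 lower (median −0.12).

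The integrated stress response and the antioxidant response are known to act on several of these transporters, SLC7A11 being a target of both. Of 22 genes of the ATF4 axis that include none of the 10 transporters, 19 were called higher and 0 lower in Met, 3 and 0 in FK, and 18 and 0 in Met+FK against DMSO, with median log2 fold changes of 1.19, 0.25 and 1.32. Of 17 NRF2 target genes tested, 6 were called higher and 0 lower in Met, 1 and 0 in FK, and 7 and 0 in Met+FK, with medians of 0.47, −0.047 and 0.50. The transporters' medians in the same order were 0.81, 0.038 and 0.87. Of all genes tested, 12.8%, 2.73% and 13.7% were called higher in that order, and 10.2%, 0.754% and 11.3% lower. Both lists, like the 10 genes, were chosen with earlier results of these data known, so their counts are no independent test.

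For each transporter, the gene with the most similar set of 3 log2 fold changes against DMSO was sought among 11511 genes that averaged 100 normalized counts or more, by Euclidean distance over these 3 values. SLC38A2 had the closest match, FNBP1L at a distance of 0.014, with 0.63 in Met, 0.67 in FK and 0.69 in Met+FK. SLC38A1 was matched by RHOQ (0.023), SLC1A5 by HDAC6 (0.020), SLC7A5 by H6PD (0.025), and SLC3A2 by MTHFD1L (0.033), which encodes a mitochondrial enzyme of folate metabolism. SLC7A1 was matched by IL31RA, SLC6A9 by AC080112.1 and SLC1A4 by NRSN2-AS1. SLC7A11 and SLC43A1 were the farthest from any other gene. SLC7A11 was matched by the long noncoding RNA MALAT1 at a distance of 0.13 (1.81, 1.04 and 1.87), and SLC43A1 by KLHL35 at 0.13.

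The strand setting of the counting is not given in the sources used here, so reads of overlapping genes on the opposite strand could not be told apart. For SLC6A9, such genes had 19.3% (CCDC24) and 17.9% (AL139220.2) of its mean normalized count, and for SLC1A4 1.1% (LINC02245).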

How the data were processed

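RNA from KP4 cells was sequenced in 12 libraries, 3 per treatment, and numbered as replicates in the labels. According to the study's methods and processing notes, the authors used cutadapt for trimming, STAR for alignment to hg38 and featureCounts for counts of read pairs per gene. The deposited signal, never below 0, is the count of a gene after division by the DESeq2 size factor of its library (0.867 to 1.21). All values were whole multiples of 1 read pair within 0.01, so 30667735 to 41052203 read pairs per library were recovered. The annotation is not given in the sources used here. Some overlaps of the 10 genes with other genes are not reported here. Table positions count starts from 0 and are given here from 1. No replicates were alike within sampling noise (chi-square over degrees of freedom 5.69 to 51.5).

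Genes averaging 10 or more, 15376 in all, were tested with limma-trend (limma 3.58.1, R 4.3.3) on log2(normalized count + 1) in 1 fit of all 12 libraries and 4 treatment means, with Benjamini-Hochberg adjustment. This scale understates changes of low genes. Calls needed a fold change over 1.5 and an adjusted p-value under 0.05, or for the interaction, (Met+FK minus Met) minus (FK minus DMSO), the adjusted p-value alone. In data simulated for Met against DMSO with 200 of 15376 genes changed 2-fold, 173 (86.5%) were recovered with 2 false calls. The simulated counts were independent and held no GC trend, so they do not bear on false calls that a GC trend or shared deviations could cause. The 10 genes and all gene lists were chosen with earlier results of these data known. All 10 were named, and of the other carriers the 3 with the largest and the 3 with the smallest Met effect among those called, and any called for FK866.

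Alternatives were pseudocounts of 0.1 and 10, 2 other gene filters, scaling to the same total, TMM scaling, a block on the replicate number, only the libraries compared, a loess trend on GC content and log length removed with and without that block (span 0.3), each library left out, calls by the adjusted p-value alone, and edgeR 4.0.16 and DESeq2 1.42.0 on recovered read pairs. The ratios to SLC3A2 with the GC trend removed were added after the data were seen. Deviations of same-numbered libraries correlated across genes by 0.25, 0.42 and 0.22 for DMSO and FK. For Met and Met+FK the values were 0.17, 0.20 and 0.23. They were 0.013, 0.33 and 0.25 for DMSO and Met, 0.051, 0.16 and 0.019 for DMSO and Met+FK, and 0.046, 0.235 and 0.14 for FK and Met+FK. With the GC and length trend removed, all lay from −0.029 to 0.172. The block gave each replicate number a shift shared by all 4 treatments, and its use rests on the values alone.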

Additional observations from a re-analysis of the deposited data

How the results depend on the processing

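Over all alternatives, 1446 of 1479 results of single transporter genes stayed on the same side of the thresholds, including 44 values that changed sign but were called in neither fit, while 16 lost and 17 gained a call and 0 called values reversed. The 1479 include fits that left out a library outside the comparison, where the fold change could not move. The 2 transporter genes called higher in FK became 1 with only the libraries compared, 0 with the GC trend removed with or without the block, and 1 to 2 with each library left out. The 0 with a negative interaction became 3 with the replicate block, 3 in DESeq2, 1 with the GC trend removed with or without the block, and 0 to 3 with a library left out. The block changed no other call of a transporter gene. The difference in the log2 ratio of SLC7A11 to SLC3A2 against DMSO went from 1.26 to 0.66 in Met, from 1.10 to 0.41 in FK and from 1.02 to 0.53 in Met+FK with the GC trend removed.

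Among the 27 other carriers, those higher in Met (1) became 2 with the same total, TMM scaling or edgeR, 3 by the adjusted p-value alone and 1 to 2 with a library left out. Those lower in Met (8) became 5 with the same total and 7 to 8 with a library left out. By the limma-trend adjusted p-value alone, SLC1A3 (0.0249) and SLC25A13 (0.000516) were lower in Met as well. SLC25A18 and SLC16A10 fell below 10 in Met, so neither was tested where at least 10 counts were required in every library. Higher in FK (0) became 1 with the same total or the adjusted p-value alone and 0 to 1 with a library left out, and lower (0) became 2 by the adjusted p-value alone. Against DMSO, higher in Met+FK (1) became 3 with the same total, 2 with the GC trend removed with or without the block, 5 by the adjusted p-value alone and 1 to 2 with a library left out, and lower (6) became 10 by the adjusted p-value alone. Against FK, higher in Met+FK (2) became 1 with the GC trend removed with or without the block and 5 by the adjusted p-value alone, and lower (7) became 4 with at least 10 counts in every library and 12 by the adjusted p-value alone. The 7 included SLC25A18, SLC16A10 and SLC25A2. SLC25A2 averaged 8.36 in DMSO, 11.4 in Met, 19.7 in FK and 7.55 in Met+FK. Its entry thus rested largely on FK, the group it was compared with, so its direction is no independent result. Positive interactions (0) became 6 with the block, 1 with the GC trend removed, 2 with both, 1 in DESeq2 and 0 to 2 with a library left out, and negative ones (0) became 4 with the block and 1 with both. The cause was not tested.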
